A study of Mus musculus with 2 samples.

Results

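The neurons described here are the sensory neurons of a 3-day dorsal root ganglion (DRG) culture that held little RNA of Calca, the gene of the neuropeptide CGRP, and of Nefh, the neurofilament heavy chain. A cell was taken as a neuron when 5 neuronal genes (Tubb3, Snap25, Uchl1, Prph and Stmn2) together reached 20 UMIs per 10000 UMIs of the cell (p10k), and the fibroblast genes Dcn, Lum and Mgp together stayed under 20 p10k. A UMI, or unique molecular identifier, counts a captured transcript once. Low neurons were chosen by their measured Calca (under 20 p10k) and Nefh (under 5 p10k). They numbered 497 of 811 neurons in 10730 cells. The other 314 neurons were 283 Calca-high neurons and 31 neurons with little Calca that reached the Nefh limit, called Nefh-positive below.

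Sensory neurons of the DRG fall into types that differ in axon, neuropeptides and receptors. Peptidergic nociceptors release CGRP and substance P and depend on nerve growth factor in development. Non-peptidergic nociceptors use the GDNF receptor Ret, and their types are marked by receptors such as Mrgprd and Mrgpra3 or by the peptides Nppb and Sst. Large myelinated neurons are rich in neurofilament. Cutting the axon of these neurons is known to induce transcription factors such as Atf3, Jun and Sox11 and to change neuropeptide production.

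Cell_culture was made from DRGs of 2-week-old SWISS mice of both sexes, taken at cervical, thoracic and lumbar levels, dissociated with enzymes, kept in culture for 3 days and detached with trypsin. Its 2 libraries, A and B, are replicates of this single condition and were loaded on the same 10X chip. No uncultured and no injured group was used here, so every comparison is between cells of the same culture. Whether the 2 libraries stem from different animals or dishes is not stated. The p-values rest on how group differences varied between these libraries, with the spread estimated across genes. That variation may be technical.

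Of 10948 barcodes, 10730 passed the limits of 200 detected genes and 10% mitochondrial UMIs. Low neurons made up 262 of 435 neurons in A (60.2%, exact 95% binomial interval 55.5 to 64.9) and 235 of 376 in B (62.5%, 57.4 to 67.4), which gave 61.4% ± 1.61 (SD, n = 2). The median low neuron held 28209 UMIs in A and 28078 in B, against 31475.5 and 28344 in Calca-high neurons, and 5018 and 4664 in the 9919 non-neuronal cells. Nefh-positive neurons were much shallower, with medians of 6451 and 4014 UMIs. Summed over cells, low neurons gave 6844721 UMIs in A and 5737171 in B, and all other neurons 4761509 and 3338847. The libraries share 8 barcode sequences, none of which marks a neuron in both.

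The 10 genes of the rule describe the groups and were not tested. Calca summed to 333 CPM (UMIs per 1000000 UMIs of the summed group) in A and 242 in B in low neurons, and to 7916 and 7613 in all other neurons. Of the low neurons 154 had no Calca UMI and 117 no Nefh UMI, and the median cell held 0.691 p10k of Calca in A and 0.632 in B. The highest Calca value inside it was 19.98 p10k and the lowest outside 20.2, and 50 low neurons lay between 10 and 20 p10k. For Nefh the values were 4.26 p10k just inside and 5.03 just outside. Prph, the intermediate filament of thin sensory axons and a label gene of these cells, stood at 2150 and 2237 CPM against 1869 and 1867.

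**Figure D1:**
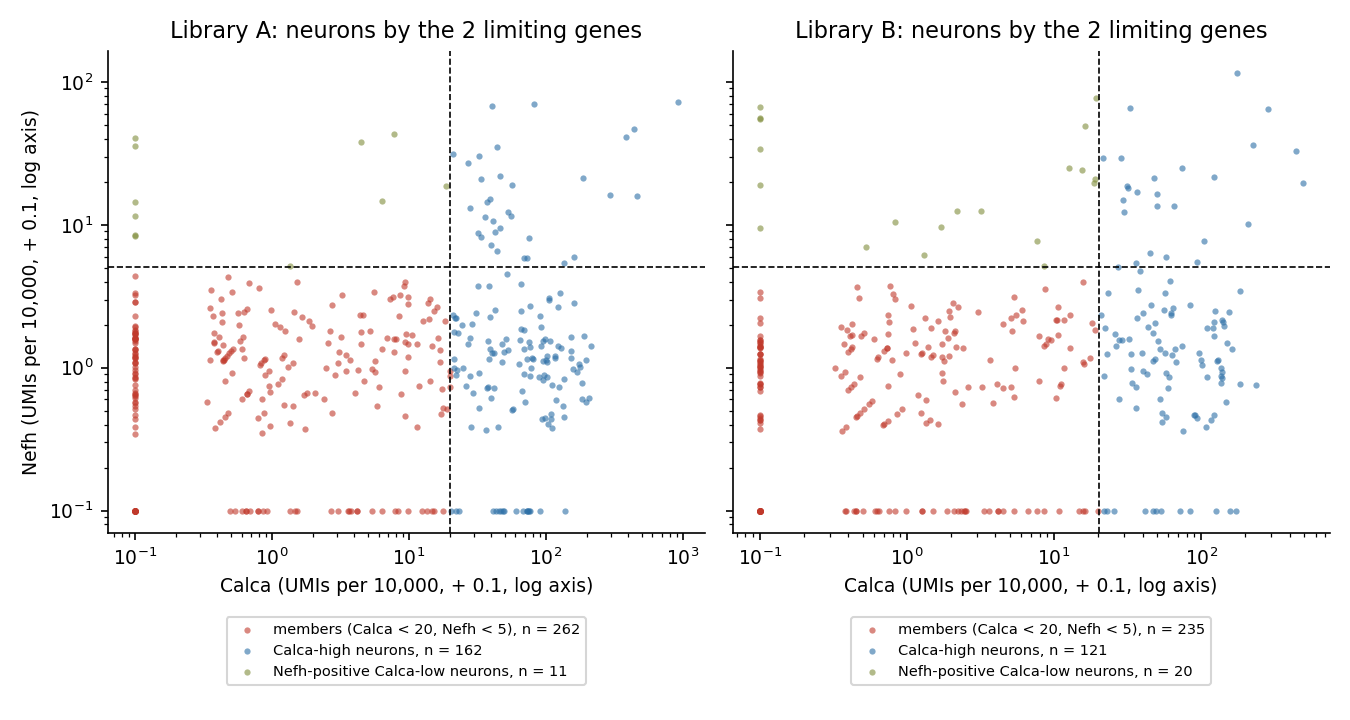
Each point is a neuron of library A or B, placed by its Calca (x) and Nefh (y) in UMIs per 10,000 plus 0.1 on log axes, with dashed lines at the limits of 20 and 5. The 262 and 235 low neurons fill the lower left field up to the lines, many with no Calca UMI, and cells lie on both sides close to the Calca line.

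The label genes Mrgprd and Ret were measured independently of the rule. Ret, the signalling receptor for GDNF family ligands, was 434 CPM in A and 433 in B in low neurons, and 311 and 326 in all other neurons (log2 difference 0.43 ± 0.05 SE, adjusted p = 3.4e-06). Mrgprd, the receptor that defines the largest non-peptidergic type, was almost absent. It gave 61 UMIs in 24 of the 497 low neurons and 11 UMIs in 8 of the other neurons. At 2000 UMIs drawn per cell, 3 of 476 low neurons had a Mrgprd UMI (0.630%, exact 95% interval 0.130 to 1.83) and 0.0581% of non-neuronal cells did. These cells are therefore named here by their low Calca and Nefh and not as Mrgprd neurons.

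Low neurons held more RNA of Penk, Nts, Atf3, Sox11 and Sprr1a and less of Ngfr, Trpv1, Tmem100 and S1pr3 than all other neurons. Low neurons were compared with all other neurons by edgeR's quasi-likelihood test on UMIs summed per library and group, with the library as a block and Benjamini-Hochberg adjustment over 12268 genes. The test called 6110 genes, 49.8% of those tested, 24.4% higher and 25.4% lower in low neurons. A difference of at least 2-fold was called in 8.72% of genes (higher) and 8.44% (lower), so the size of a difference says more here than its call. The groups were cut from the same cells by Calca and Nefh, so a gene that varies with Calca from cell to cell was bound to differ.

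The 10 genes with the largest positive difference were Penk, Anxa1, Mmp12, Flnc, Qrfpr, Tgfbi, Inhbb, Inhba, Atf3 and Nts, with log2 differences from 4.54 ± 0.13 for Penk to 3.34 ± 0.13 for Nts. Penk, which encodes the precursor of the enkephalin opioid peptides, stood at 135 CPM in A and 132 in B against 6.09 and 5.09 in all other neurons (adjusted p = 2.2e-12). The 2 libraries of each group lay close together, and the groups lay far apart. Inhba and Inhbb, subunits of the activins, were 83.9 and 113 CPM against 8.19 and 8.69, and 22.2 and 24.1 CPM against 2.31 and 1.20. Mmp12, a secreted metalloelastase, was 24.7 and 34.7 CPM against 1.26 and 2.10. Qrfpr, a peptide receptor, was 30.7 and 34.5 CPM against 2.94 and 1.20.

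Of these 10 genes, Tgfbi, Anxa1, Atf3, Inhba and Flnc had a higher mean level in non-neuronal cells than in the other neurons. Tgfbi, an extracellular matrix protein, reached 168 CPM in non-neuronal cells, above its 82.7 CPM in low neurons. Anxa1, annexin A1, was 142 CPM in A and 92.2 in B in low neurons, 4.62 and 6.29 in all other neurons, and 56.7 in non-neuronal cells. Flnc, an actin-binding filamin, was 58.1 and 64.1 CPM against 4.83 and 2.995, and 5.13 in non-neuronal cells. Inhba stood at 14.9 CPM in non-neuronal cells.

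The 10 genes with the largest negative difference were 6030408B16Rik, Pcp4l1, Cck, Prkcb, Nptx1, Cgnl1, Ptprd, F2r, Tmem100 and S1pr3, with log2 differences from −6.55 ± 0.22 to −4.49 ± 0.13. Pcp4l1, a small relative of the calmodulin-binding protein PCP4, gave 20 UMIs in all low neurons and stood at 142 and 130 CPM in all other neurons. S1pr3, a sphingosine-1-phosphate receptor that sensitises nociceptors, was 11.1 and 5.93 CPM against 194 and 195. Tmem100, an adaptor protein of TRPA1 and TRPV1, was 6.72 and 4.01 CPM against 126 and 142. Prkcb, protein kinase C beta, and Nptx1, a neuronal pentraxin, were at 0.787 and 2.27 CPM on average in low neurons, against 31.6 and 85.0. As these genes were picked for large differences with 1 sign in both libraries, both libraries of low neurons lay below both of the others. Cck, the cholecystokinin gene, differed most between the libraries of the other neurons, at 47.9 CPM in A and 15.6 in B, against 1.02 and 0.349 in low neurons.

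**Figure D2:**
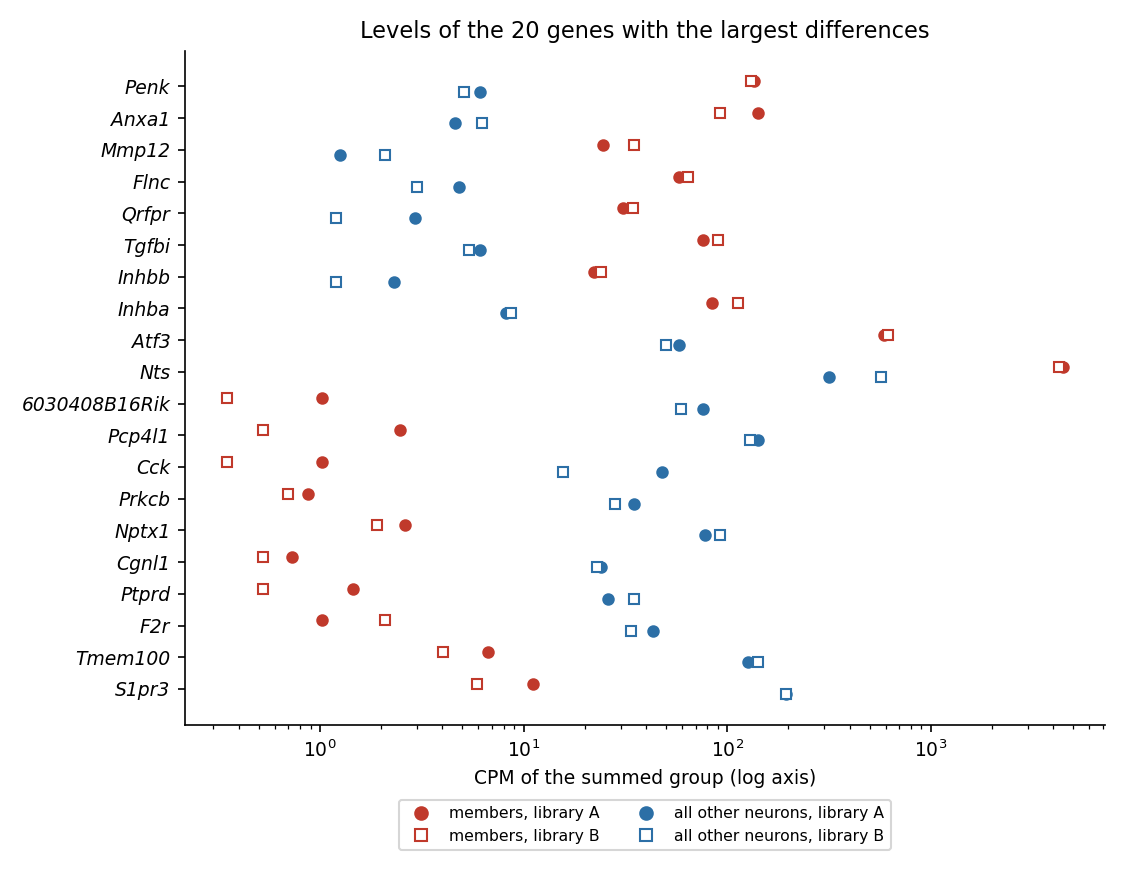
CPM of the summed group (x, log axis) for the 10 genes most higher and the 10 most lower in low neurons ("members"), with circles for library A and squares for library B. In all 20 genes the 2 libraries of a group lie closer to each other than to the other group, as for Penk at 135 and 132 against 6.09 and 5.09 CPM.

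Of the 18 injury and regeneration genes listed, 16 were tested and 13 were higher in low neurons, 9 of them at least 2-fold, against a background of 24.4% and 8.72%. Their median log2 difference was 1.91, against 0.006 over all tested genes. Atf3, the transcription factor most often used to mark axotomised sensory neurons, was 591 CPM in A and 615 in B against 58.0 and 50.02 (3.45 ± 0.07, adjusted p = 1.9e-13). Non-neuronal cells held 58.7 CPM of Atf3. Sox11, a factor needed for axon regrowth, was 803 and 771 CPM against 149 and 149 (2.39 ± 0.05, adjusted p = 2.7e-13), and 3.63 in non-neuronal cells. Sprr1a, a cornified envelope protein induced in regenerating neurons, was 987 and 1058 CPM against 103 and 162 (2.97 ± 0.09, adjusted p = 2.9e-12). For these genes every library of low neurons lay at least several times above either library of the other neurons.

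The rest of the list ran from large differences to none. Ecel1, a neuronal peptidase induced by nerve injury, was 139 and 173 CPM against 16.6 and 18.3. Gadd45a, a stress-induced growth arrest gene, was 311 and 310 CPM against 56.1 and 49.7, and Flrt3, an adhesion molecule of growing neurites, was 330 and 319 against 59.0 and 44.0. Jun, the partner of Atf3 in the AP-1 factor, was 414 and 425 CPM against 153 and 156, yet non-neuronal cells held more, with 843 CPM. Smaller differences passed for Smad1 (0.90 ± 0.07), Socs3 (0.90 ± 0.20), Klf6 (0.60 ± 0.06) and Gap43 (0.13 ± 0.04). Gap43, the growth cone protein, was high in both groups, at 2146 and 1981 against 1862 and 1857 CPM. Stat3 was slightly lower (−0.14 ± 0.05). The injury peptides Gal and Npy did not pass, with 3439 and 2928 against 3244 and 3402 CPM for Gal.

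ATF3 and JUN are known to bind AP-1 and CRE sites in DNA, so the promoters of 3 genes of this list were read. The windows span 250 bases before and 50 bases after the RefSeq start (GRCm38.p6) and are given 5′ to 3′ on the gene's strand. Capitals mark TGANTCA, an AP-1 site, which reads the same on both strands. Nts lies at chr10:102490369-102490668, Sprr1a at chr3:92485832-92486131 and Atf3 at chr1:191183284-191183583, all on the minus strand.
Nts: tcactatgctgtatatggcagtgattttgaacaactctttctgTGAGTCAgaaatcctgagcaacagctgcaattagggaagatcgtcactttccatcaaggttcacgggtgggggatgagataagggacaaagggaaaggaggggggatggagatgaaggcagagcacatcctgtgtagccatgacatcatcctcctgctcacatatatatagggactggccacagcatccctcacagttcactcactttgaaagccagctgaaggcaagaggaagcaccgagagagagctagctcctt
Sprr1a: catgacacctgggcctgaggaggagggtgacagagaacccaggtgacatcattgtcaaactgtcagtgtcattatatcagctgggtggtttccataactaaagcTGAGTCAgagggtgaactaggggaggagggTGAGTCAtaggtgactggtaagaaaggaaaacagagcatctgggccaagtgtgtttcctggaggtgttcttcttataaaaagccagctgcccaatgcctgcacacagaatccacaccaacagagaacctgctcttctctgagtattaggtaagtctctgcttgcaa
Atf3: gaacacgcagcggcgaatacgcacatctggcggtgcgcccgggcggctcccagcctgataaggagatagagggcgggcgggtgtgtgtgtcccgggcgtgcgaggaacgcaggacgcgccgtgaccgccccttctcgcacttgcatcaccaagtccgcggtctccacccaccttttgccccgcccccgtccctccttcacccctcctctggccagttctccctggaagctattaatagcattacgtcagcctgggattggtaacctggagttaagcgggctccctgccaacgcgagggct
Nts held 1 match, starting 207 bases before its start, Sprr1a held 2, at 146 and 116 bases before, and the Atf3 window held none. TGANTCA occurred in 7.81% of all 32851 promoters, in 2 of 18 promoters of the list (Nts and Sprr1a), in 2 of 11 of the 10 genes most higher and in 1 of 6 of the 10 most lower (F2r). The CRE motif TGACGTCA occurred in 1.79% of all promoters and in none of these. A match describes letters only, and binding was not measured.

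Neuropeptide genes differed in both directions. Of the 14 tested, Grp and Cck entered the test through the other neurons alone, so lower calls of this list were not counted. Nts, the neurotensin precursor, was 4454 CPM in A and 4249 in B against 315 and 568 (3.34 ± 0.13, adjusted p = 7.6e-11), and 17.1 in non-neuronal cells. Penk, described above, was higher as well. Nppb and Sst came from few cells and entered the test through low neurons alone, so higher calls of this list were not counted. The vesicle protein Scg2 was lower, at 148 and 137 CPM against 630 and 643 (−2.17 ± 0.05). Cartpt, the CART peptide, was 214 and 133 CPM against 542 and 549, and Grp, gastrin-releasing peptide, 0.438 and 0.174 against 7.14 and 8.39. Vgf, a peptide precursor induced by neurotrophins, stood at 376 and 345 against 363 and 335 CPM and did not pass.

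All 7 listed genes of peptidergic nociceptors were lower in low neurons, 6 of them at least 2-fold, against a background of 25.4% and 8.44%. The rule had used Calca, the defining gene of that type. Trpv1, the capsaicin and heat receptor, was 17.0 and 13.6 CPM against 113 and 104 (−2.84 ± 0.10, adjusted p = 2.4e-11). Adcyap1, the PACAP precursor, and Tac1, the substance P precursor, differed by −1.79 ± 0.06 and −1.43 ± 0.10. Calcb, the second CGRP gene, was 483 and 326 CPM against 862 and 837 (−1.10 ± 0.08), and Gfra3, the artemin receptor, differed least (−0.52 ± 0.08).

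Among trophic factor receptors 5 of 12 were higher and 4 lower, against a background of 24.4% and 25.4%. Ngfr, the p75 neurotrophin receptor, was 31.8 and 30.2 CPM against 368 and 362 (−3.57 ± 0.07, adjusted p = 1.9e-13), the largest difference of this list, and non-neuronal cells held 73.2 CPM. Gfra2, the neurturin receptor that pairs with Ret, was 16.8 and 19.7 CPM against 3.36 and 2.40 (2.58 ± 0.24). Non-neuronal cells held more Gfra2, at 45.0 CPM in A and 42.5 in B. Ntrk3, the NT-3 receptor, differed by 1.10 ± 0.16 and Lifr, the LIF receptor, by 0.32 ± 0.06. Osmr, a subunit of the oncostatin M receptor, was 31.6 and 31.9 CPM against 18.7 and 11.7. Il6st, the shared signalling subunit of that cytokine family, stood at 138 and 149 against 129 and 132 CPM and did not pass.

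Voltage-gated sodium channels were lower as a group: 10 of 11 genes were lower, against a background of 25.4%, and none higher. Their median was −1.21. Scn10a and Scn11a, the nociceptor channels Nav1.8 and Nav1.9, were 53.3 and 48.6 CPM against 184 and 158, and 40.2 and 33.5 against 121 and 122. Scn9a, or Nav1.7, was 178 and 169 CPM against 247 and 268 (−0.58 ± 0.06). Scn3a, a channel of embryonic neurons, was the gene that did not pass, at 11.8 and 11.2 CPM against 14.5 and 13.5. DESeq2 left 6 of these 10 calls, and a limit of 5% mitochondrial UMIs left 3.

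Of 12 tested sensory transduction channels, Htr3a and Asic3 entered the test through the other neurons alone, so calls of this list were not counted. Htr3a, the serotonin-gated channel, gave 0.146 and 0.174 CPM against 10.3 and 10.5, and Asic3, an acid-sensing channel, 0.877 and 0.349 against 10.9 and 8.69. P2rx3, the ATP-gated channel of non-peptidergic nociceptors, was on the other side, at 85.6 and 86.1 CPM against 33.6 and 36.5 (1.28 ± 0.09, adjusted p = 3.8e-08). Of 12 potassium channel and related genes 3 were higher, near the background of 24.4%, and 7 lower, against 25.4%. Kcnip4, an auxiliary subunit of Kv4 channels, was 175 and 181 CPM against 39.7 and 33.8 (2.24 ± 0.08), while Kcnd1, a Kv4 channel itself, was 15.8 and 14.1 against 63.4 and 75.5 (−2.21 ± 0.12).

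Transcription factors of sensory neurons were lower in 9 of 16 cases, against a background of 25.4%. Another 4 were higher, near the background of 24.4%. DESeq2 left 8 of the lower and none of the higher calls. Bcl11b was 3.21 and 1.92 CPM against 54.2 and 51.8 (−4.34 ± 0.18), and Bcl11a 3.36 and 2.62 against 18.3 and 19.2. The ETS factors Etv5 and Etv1, which respond to neurotrophins, differed by −2.67 ± 0.09 and −1.51 ± 0.12, and Prdm12, a factor of the nociceptor lineage, by −1.21 ± 0.09. Runx1, a factor of non-peptidergic nociceptors, was 142 and 144 CPM against 119 and 99.4 (0.36 ± 0.07). Pou4f1, which marks all sensory neurons, stood at 167 and 157 against 165 and 162 CPM and did not pass. Of 10 general neuronal genes 4 were higher and 3 lower, against a background of 24.4% and 25.4%, with a median of 0.02. The splicing factor Rbfox3, known as NeuN, was 33.8 and 32.8 CPM against 102 and 103 (−1.63 ± 0.09), and Map2, a dendritic microtubule protein, 193 and 191 against 92.6 and 111 (0.91 ± 0.07).

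**Figure D3:**
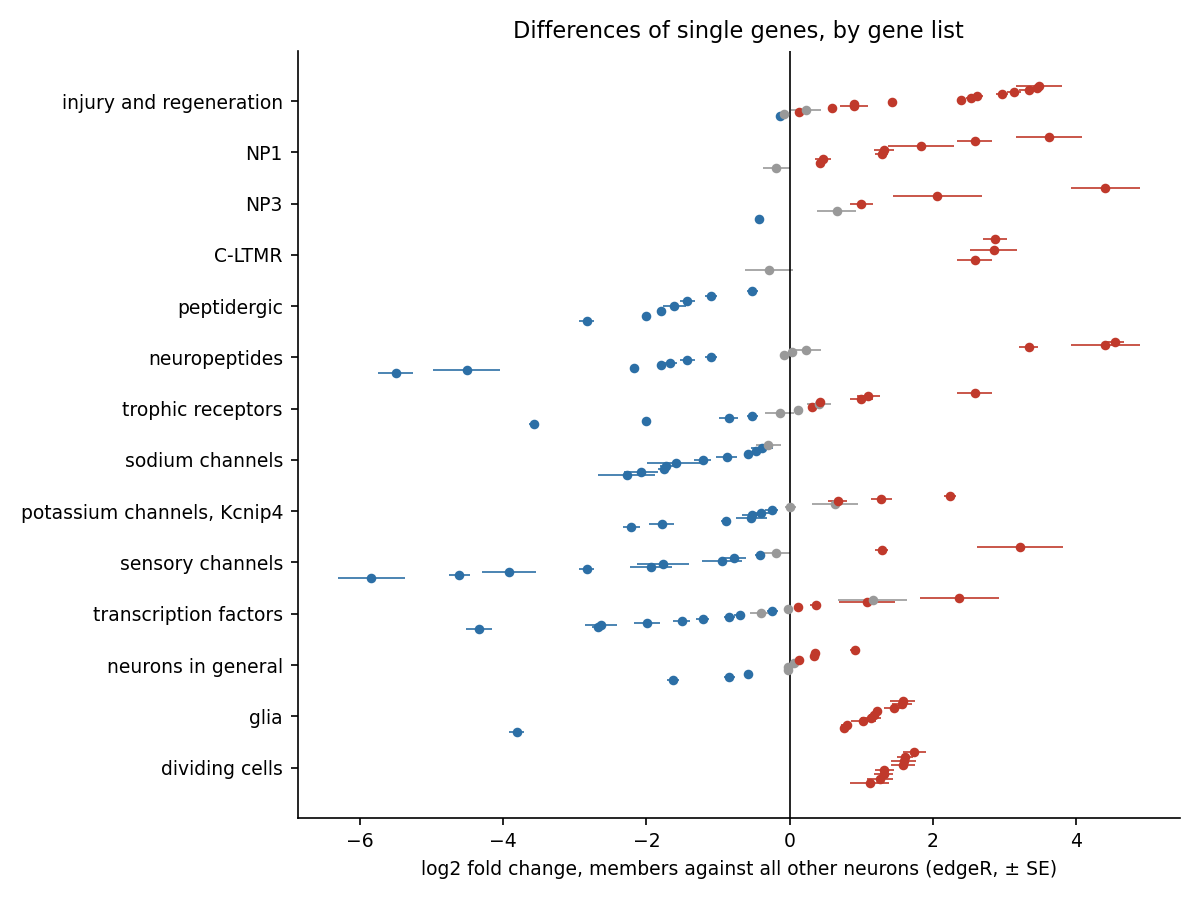
Each point is a gene of a list, placed by its log2 fold change between low neurons ("members") and all other neurons with its SE, in red where higher and passed, blue where lower and passed and grey where it did not pass. Injury and regeneration genes lie mostly to the right (13 of 16 higher), peptidergic genes (7 of 7) and sodium channels (10 of 11) to the left. Sst and Il31ra, at 0 UMIs in the other neurons, are left out.

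Genes of the non-peptidergic and C-fibre types mostly came from few low neurons each. Sst, Il31ra, Nppb, Lpar3, Trpm8 and Foxp2 had 6 UMIs or fewer in all other neurons. They entered the test through low neurons alone, so higher calls of the lists of these types were not counted. Both tested genes of the Mrgpra3 type were lower, against a background of 25.4%. Neither of the 2 cold genes, Trpm8 and Foxp2, passed in DESeq2. Of the 10 genes of the Mrgprd type, 8 were tested. Grik1, a kainate receptor subunit, was 41.5 and 42.7 CPM against 18.7 and 14.1. Plxnc1, a semaphorin receptor, was 45.9 and 49.2 against 34.9 and 32.7. Mrgprd passed in edgeR and did not pass in DESeq2 (adjusted p = 0.116). Lpar3, a lysophosphatidic acid receptor, gave 117 UMIs in 49 low neurons and 6 UMIs in the other neurons. Sst gave 47 UMIs in 17 low neurons and Il31ra, the receptor of the itch cytokine IL-31, 25 UMIs in 10, and both were at 0 in the other neurons. Against a floor of 3 UMIs over that group, their levels were at least 10.1-fold and at least 5.37-fold higher. Nppb gave 106 UMIs in 16 low neurons and 3 in the other neurons.

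Some of these cells carried several genes of a type. Nppb and Sst were found together in 9 cells, Nppb and Il31ra in 7, and Mrgprd and Lpar3 in 14. Trpm8, the cold receptor, gave 46 UMIs in 16 low neurons, 11 of which also held Foxp2, a transcription factor gene listed with it. Mrgprd and Mrgpra3 were found together in 2 cells. The itch receptor Mrgpra3 differed from these genes, with 52 UMIs in 16 low neurons and 162 UMIs in 46 of the other neurons. Its log2 difference of −2.28 ± 0.20 became −0.42 and no longer passed (adjusted p = 0.152) with Calca limited at 40 and Nefh at 10 p10k. Fam19a4, a secreted protein of C-fibre touch neurons, was in 219 low neurons, at 39.7 and 42.7 CPM against 5.67 and 5.39, whereas Th, the defining enzyme of that type, was at 2.48 and 4.18 against 2.52 and 5.69 and did not pass.

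For most type genes examined, the median of Atf3 was lower in low neurons with a UMI of the gene than in those without. The median Atf3 level was 0 p10k in the 24 cells with a Mrgprd UMI and 5.38 in cells without. It was 0.668 against 5.55 p10k for Lpar3, 2.37 against 5.28 for Nppb and 0.211 against 5.33 for Trpm8. Mrgpra3 (0 against 5.30) and Il31ra (0.874 against 5.30) went the same way, as did Th and Foxp2. Sst differed less (4.22 against 5.28), and Pvalb, also lower, was found in only 3 cells. Only for Fam19a4 was the median higher in cells with a UMI, at 6.26 against 4.08 p10k, and for Slc17a8, found in 9 cells, at 8.35 against 5.18. These are descriptions of cells of 2 libraries, with no test.

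Against Calca-high neurons alone, 13 of 16 injury genes were higher and none lower, 10 of them at least 2-fold higher, and Stat3 no longer passed. Of 12063 genes 47.8% were called, 23.6% higher and 24.2% lower, and 8.99% were at least 2-fold higher and 8.45% at least 2-fold lower. This comparison shares its low neurons and nearly all its other cells with the one above. Atf3 differed by 3.70 ± 0.09, Sprr1a by 3.70 ± 0.10, Nts by 3.46 ± 0.15 and Sox11 by 2.53 ± 0.08. Ngfr differed by −3.56 ± 0.09 and Trpv1 by −2.87 ± 0.12.

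Against the 31 Nefh-positive neurons fewer differences passed, 671 of 12063 genes (5.56%, with 3.01% higher and 2.55% lower, and at least 2-fold 2.06% and 2.13%), in sums that hold far fewer UMIs. Low neurons were lower in 8 of 9 genes of myelinated neurons. Nefm and Nefl, the other neurofilament chains, differed by −2.62 ± 0.12 and −2.13 ± 0.14, where the rule had used Nefh. S100b, a calcium-binding protein of large neurons and glia, was 16.8 and 12.03 CPM in low neurons, 643 and 599 in Nefh-positive neurons and 191 and 191 in Calca-high neurons. Ngfr was lower here too (−3.35 ± 0.25). Of the 16 injury genes 6 were higher in low neurons and 2 lower, and 8 did not pass. Atf3 was 456 CPM in A and 269 in B in Nefh-positive neurons, on 39 UMIs in each library, and its log2 difference of 0.96 ± 0.18 passed. Sprr1a was 585 CPM in A and 2493 in B in Nefh-positive neurons, against 987 and 1058 in low neurons, so the libraries differed in direction. Jun was 655 and 413 CPM in Nefh-positive neurons, against 414 and 425, and did not pass. Nts was 853 CPM in A and 1646 in B in Nefh-positive neurons, against 4454 and 4249 in low neurons.

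Low neurons were far from uniform. Nts ran from 0 in 77 cells (15.5%) over a median of 24.7 p10k to 247, and 328 cells (66.0%) reached 10 p10k. Of Calca-high neurons 23 of 283 (8.13%) reached it, and of Nefh-positive neurons 12 of 31 (38.7%). Atf3 was at 0 in 86 low neurons (17.3%), with a median of 5.22 p10k. It reached 10 p10k in 88 low neurons (17.7%), 1 Calca-high neuron and 4 Nefh-positive neurons (12.9%). Sprr1a was split more sharply, with 202 low neurons (40.6%) at 0, 147 (29.6%) at 10 p10k or more and a highest value of 189. In Nefh-positive neurons 6 of 31 (19.4%) reached 10 p10k, and in Calca-high neurons 7 (2.47%). Gal went the other way: its median was 1.52 p10k in low and 10.8 in Calca-high neurons, yet its highest value, 1030 p10k, was in a low neuron. The summed levels of Gal, which did not pass, thus came from different spreads over cells. Penk was at 0 in 351 low neurons (70.6%), so its summed level rested on a minority.

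At a fixed depth of 2000 UMIs per cell, Nts, Atf3 and Sox11 were detected in a larger share of low neurons than of Calca-high neurons in both libraries. Nts was detected in 72.0% ± 1.27 of low neurons, 14.0% ± 4.95 of Calca-high neurons and 3.34% ± 0.747 of non-neuronal cells (mean ± SD, n = 2 libraries). Atf3 was detected in 53.5% ± 2.70 of low neurons, against 6.76% ± 0.371 and 9.41% ± 0.452. Sox11 was detected in 66.6% ± 0.502, against 18.3% ± 3.53, and in 0.817% of non-neuronal cells. Thinning left out 21 low neurons, 15 Calca-high neurons and 11 of the 31 Nefh-positive neurons, whose shares are not given here.

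**Figure D4:**
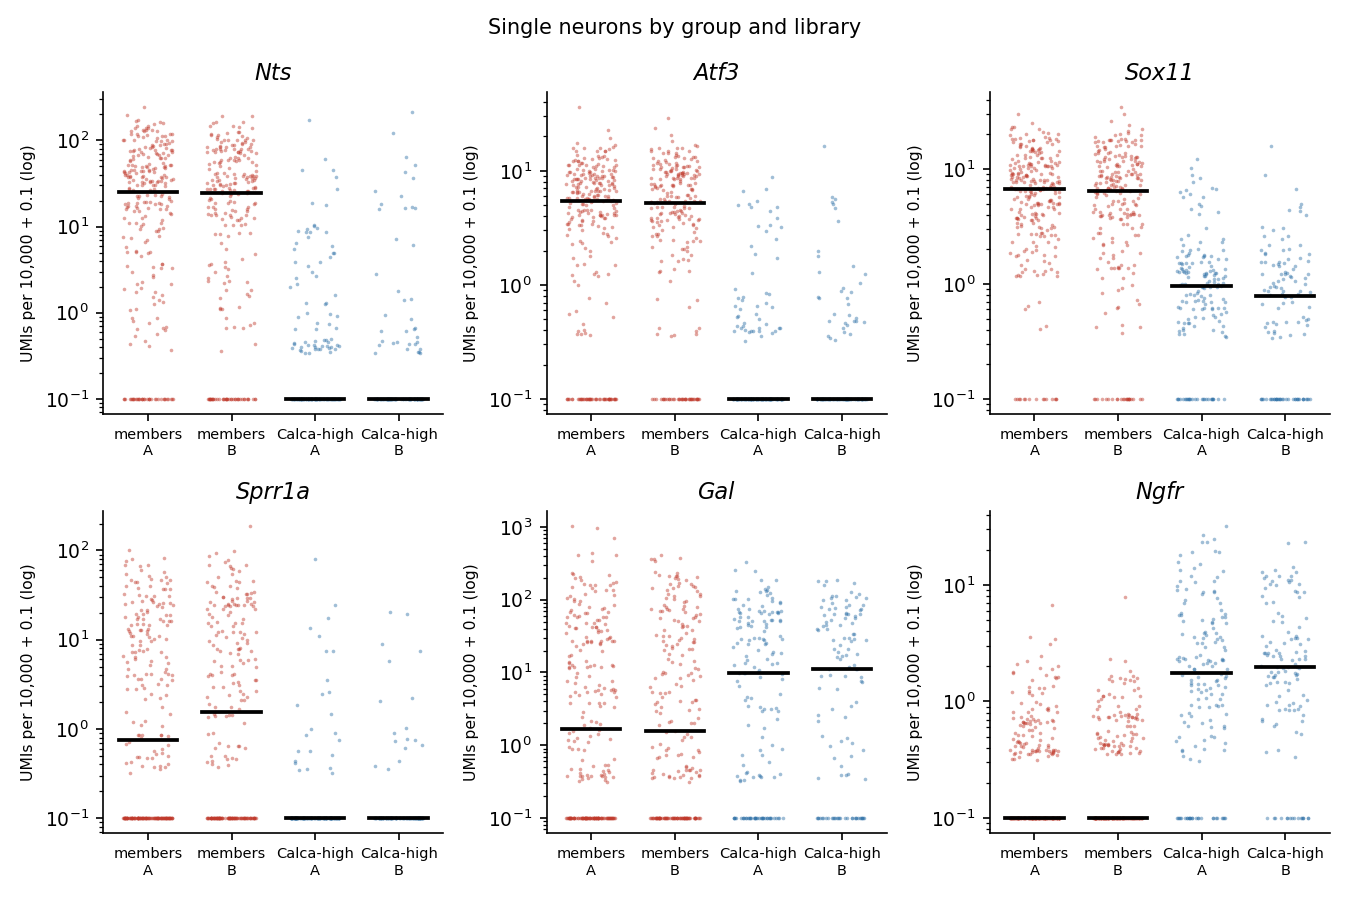
Each point is a neuron, placed by UMIs per 10,000 plus 0.1 (y, log axis) in low neurons ("members") and Calca-high neurons of each library, with a black line at the median. Nts, Atf3 and Sox11 lie higher in low neurons of both libraries, Ngfr lies lower, and Gal spreads from 0 to above 100 in both groups.

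Within low neurons, cells were described by Nts and Gal, each split at 10 p10k. Both peptides reached it in 116 cells (23.3%), Nts alone in 212 (42.7%), Gal alone in 65 (13.1%) and neither in 104 (20.9%). Median Sprr1a was 11.8 p10k in cells with both, 2.28 with Nts alone, 0.307 with Gal alone and 0 with neither. Median Atf3 followed the same order, at 7.30, 6.10, 3.04 and 0.307 p10k, and so did Sox11, at 11.5, 7.39, 3.98 and 1.78. These orders held in each library, except that Sprr1a was 0 with Gal alone and with neither in A. Median Calca, limited by the rule, was lowest in cells with both in each library (0.346 p10k in A, 0.322 in B) and had no common order among the rest. Median depth was 27767, 30525, 24971 and 24277.5 UMIs in these cells.

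Across low neurons with 2000 UMIs or more, Nts and Atf3 had a Spearman rho of 0.49 in A (n = 251) and 0.46 in B (n = 225), and Atf3 and Sox11 of 0.65 and 0.64. Nts and Gal had 0.004 and −0.09. Atf3 and Calca had −0.33 and −0.43 within the range the rule left. The cells of a library share their preparation and differ in depth, so these values are descriptions.

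**Figure D5:**
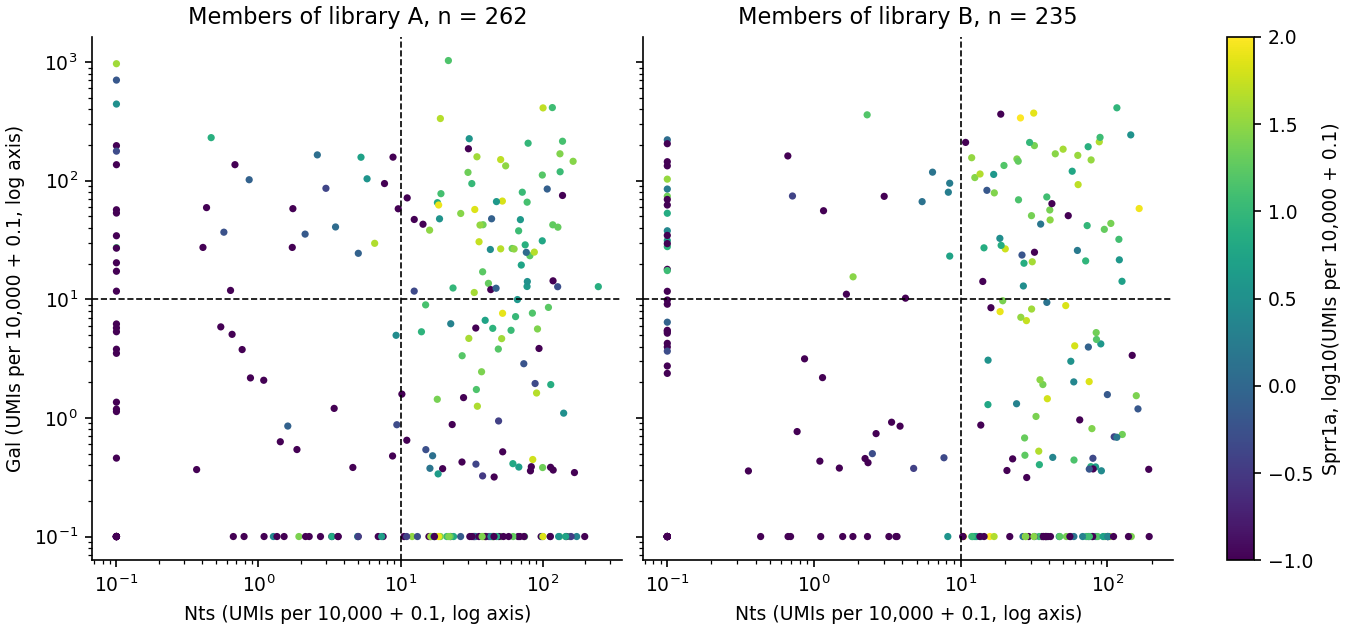
Each point is a low neuron ("member") of library A or B, placed by Nts (x) and Gal (y) in UMIs per 10,000 plus 0.1 on log axes and coloured by log10 of Sprr1a plus 0.1, with dashed lines at 10. The bright points, high in Sprr1a, lie mostly to the right of the Nts line, where the median was 11.8 with Gal and 2.28 without.

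RNA of other cell types was higher in low neurons than in all other neurons as well. Of the 10 glial genes 9 were higher and 1, S100b, was lower (−3.81), against a background of 24.4% and 25.4%. The list summed to 1719 CPM in A and 1829 in B against 1070 and 1116 in all other neurons. In non-neuronal cells it summed to 9874 and 9582. Erbb3, the neuregulin receptor of glia, was 39.6 and 44.1 CPM against 13.7 and 14.1. A sum of 5 glial genes, Erbb3 among them, reached 10 p10k in 154 low neurons (31.0%), 26 Calca-high neurons (9.19%) and 13 of 31 Nefh-positive neurons (41.9%). In the latter the glial list summed to 2841 CPM in A and 4085 in B, and against them 4 of its 10 genes were lower in low neurons and none higher. Without all such neurons Atf3 differed by 3.50, Nts by 3.42, Sox11 by 2.38 and Sprr1a by 2.91. Glial RNA still differed then, with 8 of the 10 glial genes higher and 1 lower, where 2725 of 12011 genes were called higher.

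Genes of other non-neuronal cells were higher too, against the same background of 24.4%. All 6 tested fibroblast genes were higher, and the list of 7 summed to 444 and 517 CPM against 193 and 210. All 8 genes of dividing cells were higher, summing to 310 and 292 CPM against 112 and 101 and to 2881 and 2771 in non-neuronal cells. With at most 5% mitochondrial UMIs none of them passed. Top2a, a topoisomerase of dividing cells, was 43.5 and 53.5 CPM against 18.5 and 12.3, and 649 in non-neuronal cells. All 3 tested macrophage genes were higher, and the list of 8 summed to 8.33 CPM in A and 251 in B, where 3 low neurons of B held 20 p10k or more of them. Lyz2 gave 921 UMIs in B and 9 in A, and Spp1 stood at 8.04 CPM in A and 126 in B. Without those 3 cells neither was higher (−0.19 and −0.15). Endothelial and pericyte genes summed to 1.17 and 1.05 CPM and sympathetic genes to 3.51 and 1.92, with none tested. Of the 5% of cells with the highest doublet scores, 39 were low neurons (7.85% of them) and 4 Calca-high neurons (1.41%). Without these cells Atf3 and Nts kept their direction and passed. The part of glial, fibroblast and dividing-cell RNA in the differences of single genes beyond this was not tested.

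The sizes of the leading differences moved with the choice of cells. When the limits were applied to 2000 UMIs drawn from each cell, where a single Nefh UMI already amounts to 5 p10k, the differences of Atf3, Nts, Sox11 and Penk were 1.71, 1.45, 1.33 and 1.35, and all passed. With at most 5% mitochondrial UMIs, which left 219 low neurons, Atf3 differed by 2.78, Nts by 2.498 and Jun by 0.69.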

How the data were processed

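Cells of mouse DRG cultures (Cell_culture, libraries A and B) were profiled with the 10x Chromium 3' v3 kit. The authors deposited raw UMI counts of 31053 genes per cell barcode, aligned to mm10. The submitters' notes name Cell Ranger 3.0.2, while the deposited matrices carry software version 3.1.0. The authors' own gene tests treated single cells as units. Here UMIs were summed per library and neuron group, and the library was the replicate (n = 2).

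Differences were tested with edgeR 4.0.16 in R 4.3.3 (filterByExpr, TMM, quasi-likelihood, library as a block), in 4 sums with 1 residual degree of freedom, or in 6 sums with 2 for contrasts with a single other neuron group. Mitochondrial genes and the 10 genes of the rule counted in library sizes and were not tested. A gene passed at an adjusted p of 0.05 or less. On simulated counts the test recovered 24.1% of 1.5-fold, 75.9% of 2-fold and 96.8% of 4-fold changes. Of its 131 calls 5.34% were false. The simulation set the spread and changed few genes, unlike these data, so it does not measure the error of the calls here. The text names genes of fixed lists (cell types, peptides, channels, receptors, transcription factors, injury) and the 10 largest differences in each direction that passed, had 1 sign in both libraries and reached 20 CPM. The members and lists were chosen with earlier results of these data known.

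CPM are UMIs per 1000000 UMIs of the summed group and are not compared between genes. Scrublet (scanpy 1.11.5) called 2 doublets in A and 3 in B, too few to be useful, so none were removed and an alternative left out the top 5% of scores. Counts of A and B differed by more than sampling noise (chi-square per degree of freedom 2.07 in low neurons, 1.35 in the others). Intervals are exact (Clopper-Pearson) at 95% and cover counting error only. Alternatives were other limits, depths, filters, DESeq2 1.42.0, no library block and each library alone. Leaving out cells with macrophage RNA was added after the data were seen. Promoters came from RefSeq. Cell_SNI, Cell_crush and the bulk data were not analysed here. Single values of some list genes are not reported here.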

Additional observations from a re-analysis of the deposited data

How the results depend on the processing

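Of 123 named genes compared with all other neurons, no difference changed sign under any alternative except those of Spp1 and Lyz2. Spp1 went from 2.38 to −0.18 without the top doublet scores, −0.15 without cells with macrophage RNA and −0.39 in library A alone (3.72 in B alone), and Lyz2 from 4.57 to −0.28, −0.19 and −0.80 (5.60 in B alone). DESeq2 ended 15 calls, among them Mrgprd (adjusted p = 0.116), Socs3 and Runx1, and at most 5% mitochondrial UMIs ended 28 of 112. The replicate block changed no call of these genes. Without it 2974 genes were higher and 3088 lower, 5766 were called against Calca-high and 738 against Nefh-positive neurons.

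The 2988 higher and 3122 lower genes became 580 and 650 when cells were thinned to 2000 UMIs before summing (5985 genes tested), 744 and 985 with at most 5% mitochondrial UMIs (10277 tested), and 1044 and 1374 with DESeq2. Against Calca-high neurons 5761 calls became 996, 1526 and 1738 under the same alternatives. Against Nefh-positive neurons 671 calls became 151, 65 and 423, then 2737 with Calca under 40 and Nefh under 10 p10k, 223 with a neuronal sum of at least 50 p10k, 288 without neurons with glial RNA and 48 with the limits applied to thinned cells. The share of low neurons, 61.4%, was 56.9% with limits of 10 and 2.5 p10k, 70.1% with 40 and 10, 55.6% without glial RNA, 52.6% on thinned cells, 76.8% at 5% mitochondrial UMIs and 60.2% to 62.5% in single libraries. A single library leaves no residual degrees of freedom, so its values carry no test. The 31 Nefh-positive neurons limit that comparison by depth.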

Other observations

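Genes known from myelinated neurons did not move together between low neurons and all other neurons. Of 9 tested, 3 were higher and 4 lower, against a background of 24.4% and 25.4%. Kcna1, a fast potassium channel, was 39.9 and 46.2 CPM against 19.3 and 14.7 (1.28 ± 0.15). Non-neuronal cells held more Kcna1, at 161 CPM in A and 163 in B. Ntrk3 was 24.3 and 21.4 CPM against 10.1 and 11.4. Nefm was 327 and 347 CPM against 608 and 581 (−0.84 ± 0.05), and Cntnap2, an adhesion protein beside nodes of Ranvier, 25.4 and 18.0 against 60.7 and 44.6. The third higher gene, Spp1, rested on few cells of library B.

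Avil, an actin-binding protein of sensory neurons, was 375 and 399 CPM against 306 and 296 (0.35 ± 0.05), and Elavl3, a neuronal RNA-binding protein, 342 and 340 against 264 and 267 (0.35 ± 0.05). Its relative Elavl4 was on the other side, at 282 and 281 against 417 and 417 CPM (−0.58 ± 0.05). Isl1, a transcription factor of sensory neurons, was 61.1 and 67.1 against 109 and 118 CPM (−0.84 ± 0.07).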
